A study of Mus musculus with 8 samples.

Results

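The Polycomb group genes examined here are Bmi1, Ring1, Rnf2 and Phc1 of Polycomb repressive complex 1 (PRC1) and Ezh1, Ezh2, Eed and Suz12 of Polycomb repressive complex 2 (PRC2). They were chosen by symbol: every probe set that the platform annotation gives to one of the 8 genes was taken, which gave 22 of the 45037 probe sets measured, and 8 of 18193 genes. Secondary neurospheres, which form in suspension when the cells of primary spheres are dissociated and replated and which contain neural stem cells and their progeny, were grown from the forebrains of FVB/N mice that were either wild type (FoxO3+/+) or null for FoxO3 (FoxO3-/-), a forkhead transcription factor restrained by insulin and growth factor signalling. Both genotypes received the growth factors bFGF and EGF, each at 20 ng/ml, were seeded at 50000 cells/ml and were collected on day 6, and neither carried any other allele or agent that the labels name. Total RNA was hybridised to 8 Affymetrix Mouse430_2 arrays, 4 null and 4 wild type, with 2 of either genotype in set 1 and 2 in set 2. The labels give no age or sex, do not say how the null allele was made or what a set is, and leave unsaid whether arrays alike in set and genotype derive from different animals or cultures. The p-values therefore rest on array-to-array spread, part of which may be technical.

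PRC2 places methyl groups on lysine 27 of histone H3 through its catalytic subunit, Ezh2 or its paralog Ezh1, and needs Eed and Suz12 to be active and stable. PRC1 attaches ubiquitin to histone H2A through the E3 ligases Ring1 and Rnf2 and compacts chromatin with the help of Bmi1 and Phc1. Together the complexes keep developmental regulators and the Cdkn2a cell cycle inhibitor locus silent, and Bmi1 and Ezh2 are known for sustaining the self-renewal of neural stem cells.

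The promoters show what DNA lies at a start site of each of these genes, and those of Eed, Ezh2 and Suz12 are printed because they hold a match to one of the motifs searched. All 8 genes matched a promoter of RefSeq (build GRCm38.p6), running from 250 bases before to 50 bases from the start site on. The letters GTAAACA, the core element bound by FOXO factors, were searched on both strands and occur in 1 of the 8 promoters, that of Eed, and in 3.65% of all 32851 promoters. The letters TTTCCCGC, TTTGGCGC, TTTCGCGC and TTTGCCGC, forms of the element bound by E2F factors, which drive genes of cell division, occur in those of Ezh2 and Suz12 and in 2.26% of all promoters; no matches overlapped. The Eed promoter lies on the minus strand of chr7:89980927-89981226, the Ezh2 promoter on the minus strand of chr6:47594981-47595280 and the Suz12 promoter on the plus strand of chr11:79992856-79993155. Each is written 5′ to 3′ along the gene, with the match in capitals, the FOXO letters in Eed and the E2F letters in the other two.
Eed: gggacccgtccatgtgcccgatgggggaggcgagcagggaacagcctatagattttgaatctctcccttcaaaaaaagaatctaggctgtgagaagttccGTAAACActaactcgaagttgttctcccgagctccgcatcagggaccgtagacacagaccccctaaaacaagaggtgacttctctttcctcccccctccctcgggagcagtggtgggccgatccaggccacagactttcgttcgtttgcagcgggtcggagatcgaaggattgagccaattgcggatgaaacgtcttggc
Ezh2: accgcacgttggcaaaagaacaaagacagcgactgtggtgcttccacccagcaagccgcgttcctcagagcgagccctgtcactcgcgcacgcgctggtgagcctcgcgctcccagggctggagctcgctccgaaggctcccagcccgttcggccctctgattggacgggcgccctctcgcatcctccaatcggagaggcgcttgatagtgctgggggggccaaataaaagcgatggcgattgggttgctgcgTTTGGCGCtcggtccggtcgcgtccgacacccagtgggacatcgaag
Suz12: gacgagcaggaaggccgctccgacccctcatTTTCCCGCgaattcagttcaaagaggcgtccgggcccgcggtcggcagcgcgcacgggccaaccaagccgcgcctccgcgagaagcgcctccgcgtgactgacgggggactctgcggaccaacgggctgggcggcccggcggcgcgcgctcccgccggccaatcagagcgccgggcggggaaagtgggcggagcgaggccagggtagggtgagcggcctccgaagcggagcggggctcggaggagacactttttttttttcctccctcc
The match begins 150 bases before the start site in Eed, 219 before it in Suz12 and at base 4 from the start site used in Ezh2. The annotated Ezh2 gene reaches to 47595270, near the upstream end of its promoter window. The Ezh2 start site used here therefore lies inside the annotated gene and not at its edge, and most of the printed window is within the gene. A match describes letters only, and factor binding was not measured.

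In the annotation of the same build, the genes lie on chromosomes 2 (Bmi1, 18677018 to 18686629), 17 (Ring1, 34020792 to 34024680), 1 (Rnf2, 151469398 to 151500991), 6 (Phc1, 122317731 to 122340227, and Ezh2, 47530274 to 47595270), 11 (Ezh1, 101191115 to 101226463, and Suz12, 79993106 to 80034123) and 7 (Eed, 89954654 to 89980976). Foxo3 itself is on chromosome 10, which carries none of the 8 genes.

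Values are RMA expression values on the log2 scale, so that a difference of 1 is a doubling, and the genotype difference is FoxO3 null minus wild type, fitted with limma with the set as a term. A probe set was called at an adjusted p under 0.05 (Benjamini-Hochberg over all 45037). Of the 4 probe sets annotated to Foxo3, 3 were called lower in the null arrays. The brightest, 1434831_a_at, read from 10.00 to 10.32 in the wild type and from 8.86 to 9.14 in the null arrays, a difference of -1.17. The others were at -1.07 (1434832_at), -0.48 (1444226_at, shared with Gm38485) and 0.33 (1450236_at, not called). The labels do not place these probes relative to the null allele. Array medians lay between 6.27 and 6.31. All 8 neural stem and progenitor markers lay above the median probe set. So did 7 of 7 astrocyte, 7 of 7 oligodendrocyte lineage and 5 of 7 neuronal markers, 2 of 6 microglial and 1 of 6 endothelial and mural markers. Brightness differs between probes, so these counts describe signal on the array and not the make-up of the spheres. In whole-sphere RNA, fewer cells of a type and less RNA per cell cannot be told apart.

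No core Polycomb gene was called between the genotypes. Of the 22 probe sets 0 were called by limma, against 0.802% of all probe sets, and 1 had an unadjusted p under 0.05, against 12.7%. The smallest adjusted p was 0.39. The 8 genes, each by its brightest probe set, had a median log2 fold change of 0.080, against 0.0091 over all genes, and 6 of 8 were positive, against 54.2% of all genes. The 95% intervals of these 8 reached from -0.29 to 0.31 on the log2 scale. A change beyond 1.24-fold up or 1.23-fold down therefore lay outside the interval of each of the 8 on these arrays, which treats the arrays as independent. Smaller changes were not resolved.

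**Figure D1:**
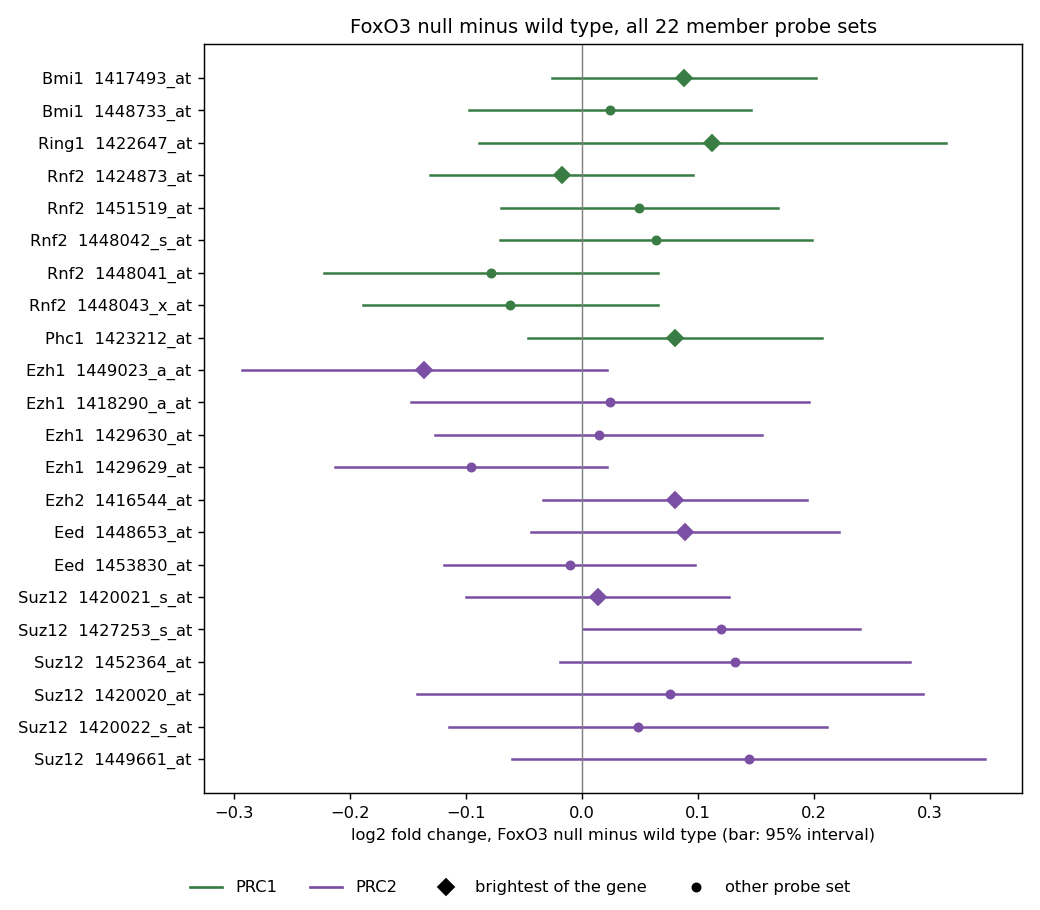
Log2 fold change, FoxO3 null minus wild type, of each of the 22 probe sets (vertical axis, PRC1 in green and PRC2 in purple), with bars for the 95% interval of the limma fit with a set term. Estimates lie between -0.14 and 0.14, and the interval of 1 probe set, Suz12 1427253_s_at, misses 0.

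Among the PRC1 genes, Bmi1, which stimulates the ligase activity of the complex, differed little between genotypes. Probe set 1417493_at read 11.82 and 11.81 in the wild type arrays of set 1, 11.51 and 11.55 in those of set 2, 11.81 and 11.90 in the null arrays of set 1 and 11.66 and 11.67 in those of set 2. In set 2 both null arrays lay above both wild type arrays, and in set 1 the genotypes overlapped. The difference was 0.088 ± 0.051 (SE; interval -0.026 to 0.20, limma adjusted p = 0.536). The second Bmi1 probe set, 1448733_at, gave 0.024 ± 0.055 with an interval from -0.098 to 0.15.

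Rnf2, also known as Ring1B, and Ring1 are the paralogous ligases of PRC1. The brightest Rnf2 probe set, 1424873_at, read 10.89, 10.82, 10.65 and 10.57 in wild type arrays 1_1, 1_2, 2_1 and 2_2 and 10.81, 10.87, 10.60 and 10.58 in the null arrays in the same order, where the first digit is the set. The genotypes overlapped in both sets, with a difference of -0.017 ± 0.051 (SE; interval -0.13 to 0.096). The other 4 Rnf2 probe sets ran from -0.078 to 0.064, so the probe sets did not share a sign. The only Ring1 probe set, 1422647_at, had the widest error of the 8 genes. It read 7.79, 8.05, 8.37 and 8.31 in the wild type arrays and 8.12, 8.32, 8.28 and 8.25 in the null arrays. The null arrays lay above the wild type arrays in set 1 and below them in set 2, and the difference over both sets was 0.11 ± 0.091 (SE; interval -0.089 to 0.31). It was 0.024 without wild type array 1_1 and 0.034 without null array 1_2.

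Phc1, a Polyhomeotic protein whose SAM domain links PRC1 complexes to each other, read 9.38, 9.24, 9.44 and 9.44 in the wild type arrays and 9.28, 9.36, 9.60 and 9.58 in the null arrays. The genotypes overlapped in set 1 and were apart in set 2, with the null arrays higher. The difference was 0.080 ± 0.057 (SE; interval -0.046 to 0.21, limma adjusted p = 0.631).

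**Figure D2:**
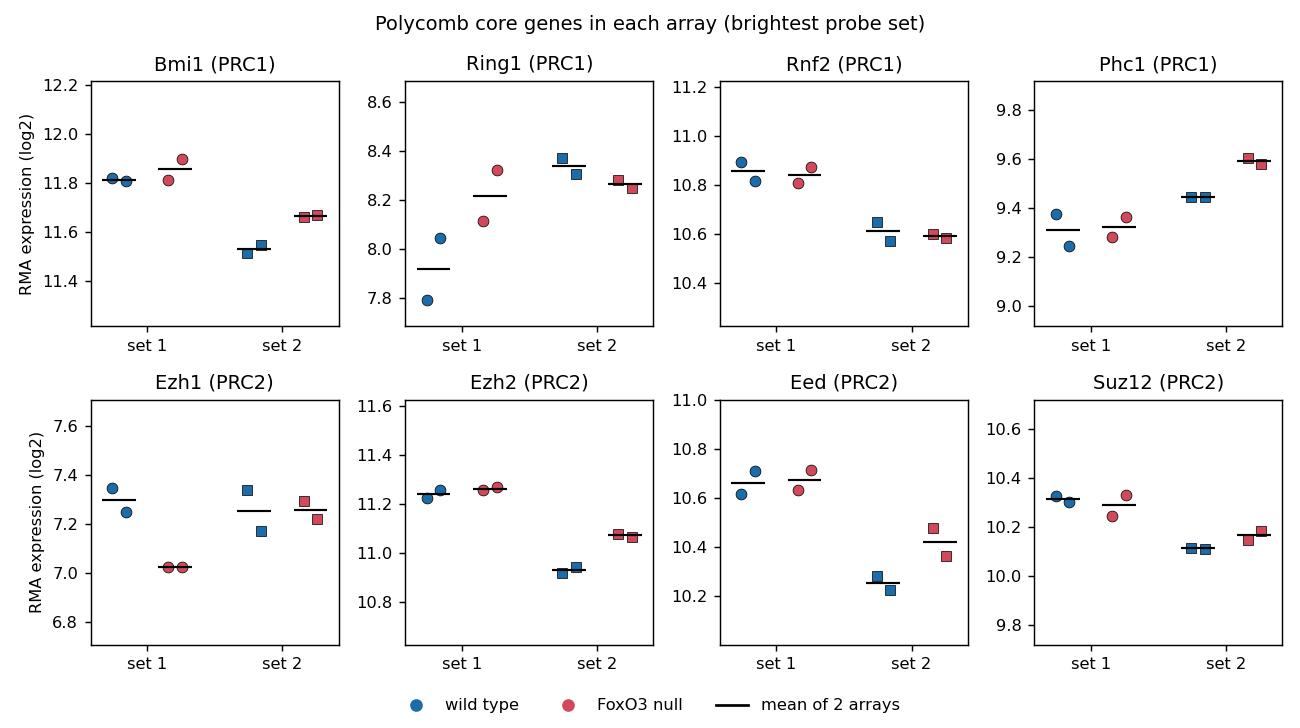
RMA expression (log2, vertical axis, each panel spanning 1 unit) of the brightest probe set of each of the 8 genes in all 8 arrays, by set; blue points are wild type, red points FoxO3 null and lines the mean of 2 arrays. In set 2, both null arrays lie above both wild type arrays for Bmi1, Phc1, Ezh2, Eed and Suz12, while in set 1 those genes overlap.

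Ezh2, the methyltransferase subunit typical of dividing cells, has 1 probe set, 1416544_at. It read 11.226, 11.256, 10.92 and 10.94 in the wild type arrays and 11.255, 11.267, 11.08 and 11.07 in the null arrays. Replicate arrays of a set and genotype lay close together, the genotypes overlapped in set 1, and the null arrays were higher in set 2. The difference was 0.080 ± 0.051 (SE; interval -0.033 to 0.19, limma adjusted p = 0.578), at most 1.14-fold at the upper end of the interval. Ezh1, the paralog found mainly in non-dividing cells, had the largest negative estimate. Its brightest probe set, 1449023_a_at, read 7.35, 7.25, 7.34 and 7.17 in the wild type arrays and 7.02, 7.02, 7.29 and 7.22 in the null arrays. Both null arrays were lower than both wild type arrays in set 1, and the genotypes overlapped in set 2. The difference was -0.14 ± 0.071 (SE; interval -0.29 to 0.022, limma adjusted p = 0.477). The dim probe set 1429629_at gave -0.095 ± 0.053 and 2 more gave 0.024 and 0.014, so 2 of the 4 Ezh1 probe sets were negative.

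Eed, which binds the methyl mark and switches on the enzyme, read 10.61, 10.71, 10.28 and 10.22 in the wild type arrays and 10.63, 10.71, 10.48 and 10.36 in the null arrays in probe set 1448653_at. The gap between sets was wider than that between genotypes, and the null arrays were higher in set 2. The difference was 0.089 ± 0.060 (SE; interval -0.044 to 0.22, limma adjusted p = 0.602), and 0.051 without null array 2_1. The second Eed probe set, 1453830_at, is dim, with 13.6% of all probe sets below it, and gave -0.011 ± 0.049.

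Suz12, the subunit that holds PRC2 together, had 6 of 6 probe sets with a positive estimate over both sets, against 54.7% of all probe sets, with a median of 0.098 and a range from 0.014 to 0.14. Only 3 of the 6 had the same sign in both sets. Probe set 1427253_s_at read 9.75, 9.75, 9.70 and 9.78 in the wild type arrays and 9.92, 9.79, 9.87 and 9.90 in the null arrays. Each null array lay above each wild type array here, as in 1.78% of all probe sets, though the highest wild type and the lowest null array nearly met. The difference was 0.12 ± 0.054 (SE; interval 0.00081 to 0.24, limma adjusted p = 0.39), or 1.09-fold. The brightest Suz12 probe set, 1420021_s_at, gave 0.014 ± 0.051 with an interval from -0.10 to 0.13. The 6 probe sets are not replicates, since they target the same gene, and the ending _s_at marks probes shared by several transcripts.

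Within single sets, 0 of the 22 probe sets were called in set 1 and 0 in set 2 (limma on the 4 groups of 2 arrays), against 0.284% and 0.91% of all probe sets. At an unadjusted p under 0.05 there were 2 in set 1 and 3 in set 2, against 8.74% and 12.1%. In set 1 these were Ring1 1422647_at at 0.30 ± 0.10 (SE; adjusted p = 0.414) and Ezh1 1449023_a_at at -0.27 ± 0.084 (adjusted p = 0.328). In set 2 they were Suz12 1449661_at at 0.32 ± 0.11 and Suz12 1452364_at at 0.24 ± 0.086, and Rnf2 1448042_s_at at 0.17 ± 0.075. Of the brightest probe sets, 5 of 8 had both null arrays above both wild type arrays in set 2, against 23.1% of all probe sets, and 1 of 8 did in set 1, against 21.4%. Both shares cover all probe sets, dim ones included, and not the brightest of each gene. The opposite order, both null arrays below both wild type arrays, was found for Ezh1 in set 1 and for Ring1 in set 2. The median of the 8 was 0.094 in set 2 and 0.012 in set 1. The genotype difference itself was not shown to differ between sets: 0 of 22 passed the interaction test, against 0.0688% of all probe sets, and 3 had an unadjusted p under 0.05, against 7.54%.

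**Figure D3:**
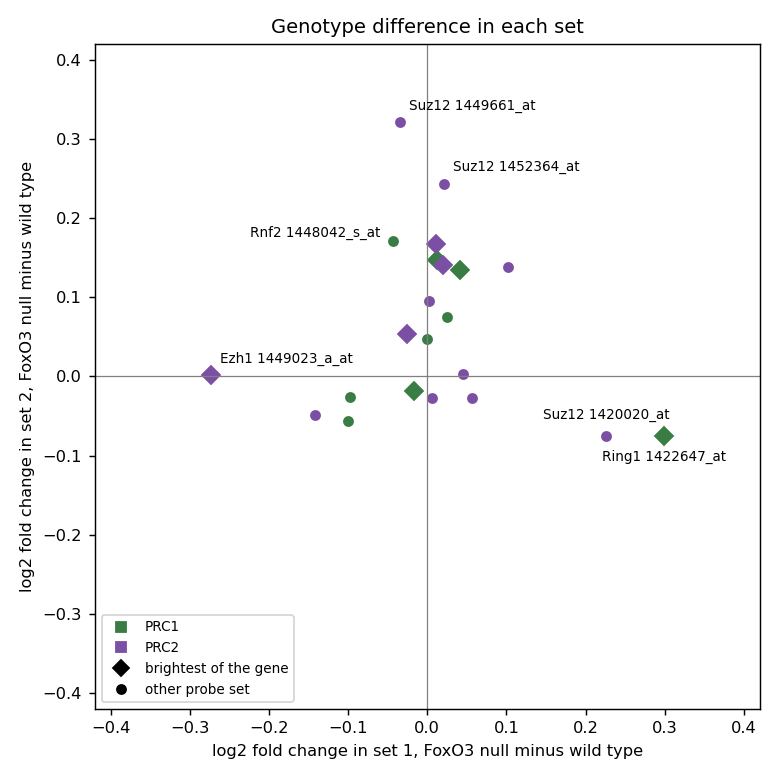
Log2 fold change, FoxO3 null minus wild type, in set 1 (horizontal axis) and set 2 (vertical axis) for the 22 probe sets; diamonds are the brightest probe set of a gene, green is PRC1 and purple PRC2. Of the 22 points, 14 have the same sign in both sets, against 55.6% of all probe sets, and Ring1 at 0.30 and -0.075 is the farthest to the right.

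The estimate for the set was larger in size than that for the genotype in 7 of the 8 core genes (all but Ezh1) and in 33795 of all 45037 probe sets. This comparison was added after the values were seen. Of the 22 probe sets 9 were called between sets, against 38.4% of all probe sets, and of the 8 brightest 6 were called, against 41.6% of the brightest probe sets of all genes. In set 2 Eed 1448653_at was lower by a log2 difference of -0.33 ± 0.060 (SE; limma adjusted p = 0.00172), Ezh2 by -0.25 ± 0.051 (adjusted p = 0.00355) and Rnf2 1424873_at by -0.25 ± 0.051. Bmi1 1417493_at was lower by -0.24 ± 0.051, and Suz12 1420021_s_at by -0.16 ± 0.051. Phc1 was higher in set 2, by 0.20 ± 0.057 (adjusted p = 0.0179). Ezh1 1449023_a_at and Ring1, at 0.095 ± 0.071 and 0.23 ± 0.091, were not called. Its 2 probe sets gave Eed calls in opposite directions, since the dim 1453830_at was higher in set 2 by 0.27 ± 0.049.

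**Figure D4:**
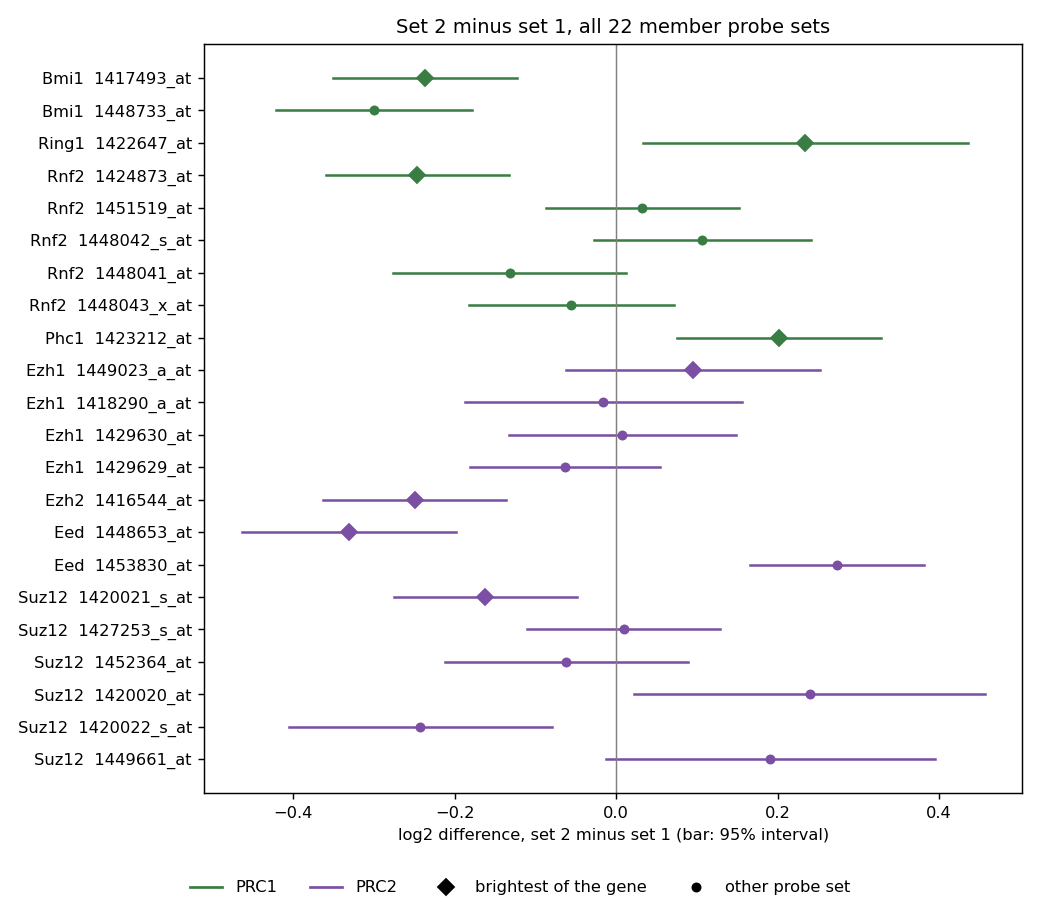
Log2 difference, set 2 minus set 1, of each of the 22 probe sets (vertical axis, PRC1 in green and PRC2 in purple) with bars for the 95% interval, from the same fit. Brightest probe sets of Bmi1, Rnf2, Ezh2, Eed and Suz12 lie left of 0, between -0.33 and -0.16, and that of Phc1 lies at 0.20.

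Markers of dividing cells were also lower in set 2. Of 11 proliferation genes measured, 9 were called lower in set 2 and 0 higher, against 41.6% of all genes called between sets in either direction. Among the 9 were Mki67, the Ki-67 antigen of cycling cells, at -0.61 and Mcm2, a subunit of the replicative helicase, at -0.50. Of 7 genes of the oligodendrocyte lineage, 5 were called higher in set 2 and 0 lower, against the same 41.6%, with Mbp, a myelin protein, at 2.20. The mean level of the 7 ran from 9.58 to 9.69 in set 1 and from 10.57 to 10.86 in set 2. Between genotypes, all 11 proliferation genes had positive estimates from 0.10 to 0.20, against 54.2% positive over all genes. None was called by limma (0 of 11), and 7 had an unadjusted p under 0.05, against 14.5% of all genes. Set 2 gave them a median of 0.20 and set 1 one of 0.059. In set 2 the mitotic checkpoint kinase Bub1 was called, at 0.38 (limma adjusted p = 0.0469), against 0.91% of all probe sets. The mean level of the 11 proliferation genes in set 2 was 10.63 and 10.69 in the wild type arrays and 10.88 and 10.85 in the null arrays. In set 1 it was 10.99 and 11.07 in the wild type arrays and 11.11 and 11.11 in the null arrays. Between genotypes, 3 of the 7 oligodendrocyte lineage genes were called lower in the null arrays (Sox10, Pdgfra and Cspg4), against 0.874% of all genes. Also called lower were 1 of 7 astrocyte genes (Slc1a2) and 1 of 7 neuronal genes (Gad1). Positive estimates were found in 3 of 7 oligodendrocyte lineage, 3 of 7 astrocyte and 4 of 7 neuronal genes, with 0 called higher. Of 8 neural stem and progenitor genes 0 were called by limma and 3 were positive. An unadjusted p under 0.05 was found in 4 of the 8, against 14.5% of all genes. These went both ways, with Nes at 0.29, Sox2 at -0.26, Pax6 at -0.18 and Msi1 at -0.28. Mbp was at 0.44 over both sets and not called. Within set 1 Mbp was called higher, at 0.87 (limma adjusted p = 0.00929), against 0.284% of all probe sets called. In set 2 Mbp was at 0.015, and its interaction with set did not pass (limma adjusted p = 0.0835). The part of these cells in the Polycomb values was not tested. Of 3 Y-linked genes (Eif2s3y, Kdm5d and Uty), all 3 were called lower in set 2, against 41.6% of all genes called between sets in either direction. Between genotypes 1 of the 3 was called lower in the null arrays, Uty at -0.42 (limma adjusted p = 0.0423), against 0.874% of all genes. The averaged level of the 3 moved with the genotype, from 8.35, 8.18, 7.80 and 7.66 in the wild type arrays to 7.90, 8.09, 6.88 and 7.10 in the null arrays. Within sets that average correlated with the genotype at -0.86, so a fit that holds both can hardly tell them apart. With that average as a covariate the median of the 8 core genes was 0.017, the estimate for Ezh2 was -0.012, and 0 of 22 member probe sets were called, as were 0 of all 45037, those of Foxo3 included.

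Among all genes above the median level, those whose pattern was most like that of Ezh2 were Id4, an inhibitor of differentiation, Kif13a, a kinesin, Soga3, Pbdc1 and Tusc1, with Pearson correlations from 0.987 to 0.994 over the 8 arrays after subtraction of the set means, each gene taken by its closest probe set. None of the 5 was called in the probe set compared, and 11391 genes were ranked, so high values arise easily. Of the other core genes Bmi1 was the nearest to Ezh2, at 0.910 and rank 405, followed by Eed at 0.835, Suz12 (1452364_at) at 0.834, Rnf2 (1448042_s_at) at 0.754 and Phc1 at 0.734. Ring1 was at -0.0033 and Ezh1 at -0.19. Probe sets of a gene gave different values, since the brightest of Suz12 stood at 0.519 and that of Rnf2 at -0.34. These correlations describe 8 arrays that fall into 4 groups of set and genotype.

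The wider Polycomb machinery was likewise not called. Over 44 measured genes of the other subunits and the opposing enzymes 0 were called by limma, against 1.12% of all genes by their brightest probe set, and the median log2 fold change was 0.0021. Over all genes 14.5% had an unadjusted p under 0.05. Of 22 other PRC1 subunits 2 did. L3mbtl2, a chromatin reader of a variant PRC1, was at 0.21 ± 0.060 (SE; limma adjusted p = 0.166), and Auts2, which partners another variant, at 0.21 ± 0.089. In L3mbtl2 each null array lay above each wild type array, as in 1.78% of all probe sets, and the nearest were at 8.590 and 8.585. Of 10 PRC2 accessory subunits 2 had an unadjusted p under 0.05. These were Lcor, a corepressor related to a PRC2 subunit, at -0.14 ± 0.052 (adjusted p = 0.29), and Epop, a PRC2 cofactor, at -0.16 ± 0.067. In Lcor the highest null array, at 8.89, was under the lowest wild type array, at 8.92, an order found in 1.33% of all probe sets. Of 12 opposing enzymes 3 had an unadjusted p under 0.05, and the smallest were at Kmt2c and Kmt2a, methyltransferases of histone H3 lysine 4, at -0.17 ± 0.058 and 0.14 ± 0.061.

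The RNA of genes that Polycomb complexes are known to silence was also examined. Histone marks and Polycomb binding were not measured, so these levels alone do not report Polycomb activity. Of 4 CDK inhibitors 1 was called, against 0.874% of all genes called lower: Cdkn2b, which encodes p15, fell by 0.55 on the log2 scale (SE 0.069, limma adjusted p = 0.00766). It read 9.28, 8.99, 9.67 and 9.79 in the wild type arrays and 8.58, 8.55, 9.24 and 9.15 in the null arrays, apart within each set though overlapping across sets. Within sets the difference was -0.57 (adjusted p = 0.0642) in set 1 and -0.53 (adjusted p = 0.0473) in set 2, where 0.91% of all probe sets were called. With the Y-linked average as a covariate, which can hardly be told apart from the genotype, it was -0.57 and no longer called (adjusted p = 0.369). The call was also lost with no set term and when arrays alike in set and genotype were averaged (adjusted p = 0.0665). Its neighbour Cdkn2a, which encodes p16 and p19Arf, read between 5.80 and 6.68 in the wild type and between 6.21 and 6.59 in the null arrays, with a difference of 0.083 ± 0.10. Its interval ran from -0.14 to 0.31. Cdkn1a, which encodes p21, had -0.20 ± 0.081 over both sets (adjusted p = 0.327), with 12.25 and 12.20 in wild type against 11.79 and 11.85 in null arrays of set 2 and no gap in set 1. In set 2 it was called lower, at -0.41 ± 0.075 (SE, limma adjusted p = 0.0431), against 0.91% of all probe sets called in that set. Its interaction with set did not pass (adjusted p = 0.354). Cdkn1a was bright on these arrays, with 97.2% of all probe sets below it. Cdkn1c, which encodes p57, had 0.22 ± 0.12 over both sets (adjusted p = 0.507), with -0.074 in set 1 and 0.51 in set 2 (adjusted p = 0.0948; interaction adjusted p = 0.416).

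Of 33 measured Hox genes, the classical Polycomb targets that pattern the body axis, 0 were called by limma and 1 had an unadjusted p under 0.05, against 14.5% of all genes. Their median log2 fold change was 0.0041, with 18 positive and 15 negative. Hoxa13 at 0.18 ± 0.072 (SE; adjusted p = 0.346) and Hoxb13 at 0.15 ± 0.078 had the smallest p. Of the 33, 6 lay above the median probe set.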

How the data were processed

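The deposited table holds log2 expression values of 45101 probe sets in 8 arrays, made by the authors with RMA (background subtraction, quantile normalization and a summary over probes), per the submitters' processing notes. The RMA version and whether the arrays were processed jointly are not given in the sources used here. A shift common to every gene cannot be seen after such normalization, and differences of dim probe sets are compressed. The 64 control probe sets were left out and no filter on low values was applied; of the 22 member probe sets, 14 lay above the median probe set. The platform annotation gives 34945 probe sets 1 symbol, 932 several and 9160 none. Symbols checked through Entrez IDs against GRCm38.p6 changed in 0 cases. A gene is represented by the brightest of its probe sets (mean of all arrays), and list genes with no probe set of their own were not analysed here. A level is set only against the median probe set, as a description of signal.

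The genotype test was two-sided, by lmFit and eBayes of limma 3.58.1 (R 4.3.3), with set as an additive term; single sets and the interaction came from a fit of 4 group means, and the number of arrays limits the precision. The fits were tested on simulated data. Genes and probe sets were named by rule: every member and Foxo3 probe set, the called genes of each wider list or the 2 with the smallest p, the 4 CDK inhibitors and the 5 genes most like Ezh2; marker genes and set differences were named after their values were seen. Members and lists were chosen with earlier results of these data known. Same-numbered arrays of the 2 genotypes had deviations correlated by 0.074 in set 1 and -0.058 in set 2, so the numbers were not taken as pairs. Alternatives covered the set term, blocks, normalization, a level filter, the variance model, the Y-linked mean and leaving out each array.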

Additional observations from a re-analysis of the deposited data

Results flagged for a closer look

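In Rnf2 1451519_at, FoxO3 null array 1_2 read 10.32 while the other 3 null arrays read 10.42 to 10.44, a gap of 0.87 of the group's range; 76 groups of 4 arrays were examined, of which chance sets apart about 1 in 20. In Ring1 1422647_at every null array was above every wild type array in set 1 and below in set 2, a difference between sets of -0.374 that did not pass the interaction test (limma adjusted p = 0.591). In Rnf2 1448042_s_at the order was the reverse, a difference of 0.215 (adjusted p = 0.709).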

How the results depend on the processing

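The count of 0 called member probe sets held in each of 20 alternatives, an adjusted p under 0.1 and the replicate block (0 called) included. The Y-linked covariate correlated with the genotype at -0.86 within sets, so its fit can hardly tell them apart. Calls over all probe sets, 361 as reported, ran from 0 with the Y-linked covariate, and 3 with no set term, to 1354 with set and genotype together as a random block. The smallest adjusted p of a member was 0.159, with that random block. The median of the 8 genes was 0.012 in set 1 alone, and 0.056 to 0.10 without 1 array. Foxo3 had 3 probe sets called as reported, 1 with no set term, 1 when the arrays alike in set and genotype were averaged, 0 with the Y-linked covariate and 2 to 3 without 1 array; the cause was not tested. The 3 called Foxo3 probe sets and Cdkn2b kept their sign in each alternative that held them; the member probe sets and target genes that turned sign were uncalled. In set 1 alone, the estimates that turned were Rnf2 1448042_s_at -0.043, Eed 1453830_at 0.0060, Suz12 1420021_s_at -0.026, Suz12 1449661_at -0.034, Cdkn2a 1450140_a_at -0.013 and Cdkn1c 1417649_at -0.074. In set 2 alone they were Ring1 1422647_at -0.075, Ezh1 1449023_a_at 0.0015, Ezh1 1429630_at -0.028 and Suz12 1420020_at -0.075. With the Y-linked covariate they were Rnf2 1424873_at 0.031, Rnf2 1451519_at -0.036, Rnf2 1448042_s_at -0.056, Ezh2 1416544_at -0.012, Eed 1448653_at -0.039, Eed 1453830_at 0.024, Suz12 1420022_s_at -0.067, Suz12 1449661_at -0.0062, Cdkn2a 1450140_a_at -0.13, Cdkn1a 1424638_at 0.12 and Cdkn1c 1417649_at -0.38. Without 1 array, estimates that turned ran for Ezh1 1418290_a_at from -0.022 to 0.073, for Ezh1 1429630_at from -0.022 to 0.068, for Bmi1 1448733_at from -0.0088 to 0.047, for Suz12 1420020_at from -0.0025 to 0.18, for Eed 1453830_at from -0.022 to 0.0011, for Suz12 1420021_s_at from -0.0020 to 0.038 and for Cdkn2a 1450140_a_at from -0.037 to 0.16. With the same sign throughout, the value without 1 array ran from 0.024 to 0.16 for Ring1, from 0.051 to 0.12 for Eed 1448653_at, from -0.20 to -0.089 for Ezh1 1449023_a_at and from -0.033 to -0.0016 for Rnf2 1424873_at.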
